A study of Mus musculus with 8 samples.

Results

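Interferon-stimulated genes are the genes that cells switch on when they meet interferon, and 47 of them, among 55414 genes in the expression table, were followed here through 8 libraries of B16F10 cells, a cultured mouse melanoma line. The 47 were taken by gene symbol from a list of well-known members of this response. The rule does not use expression values, but the list was chosen with earlier results of these data known. Counts of members beside all genes are thus not independent of these data. They comprise transcription factors of the response, the ISG15 conjugation system, the feedback inhibitor Socs1, the IFIT, OAS and IFITM families, nucleic acid sensors, interferon-inducible GTPases, PARP9 with its partner DTX3L, and several antiviral effectors. The study asked how cyclophilin D (CypD), the mitochondrial regulator of the permeability transition pore that is encoded by Ppif, acts on melanoma cells at different oxygen levels.

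There were 4 groups of 2 libraries each, all from cells kept for 24 h at the stated oxygen level. WT cells (B16F10 labelled wild type) and CypD KO cells (B16F10 with Ppif disrupted by CRISPR/Cas9) were kept at 21% oxygen. At 1% oxygen were Control cells (B16F10 stably transfected with pcDNA alone) and CypD OE cells (B16F10 stably transfected with pcDNA-CypD). The KO cells were stable clones selected with puromycin and the pcDNA lines were clones selected with G418, so a difference between lines can also be a difference between clones. The 2 libraries of a group are not described as separate cultures, and p-values then measure the spread between these libraries, which may be technical. Expression is given in TPM, the share of a gene among all transcripts of its library after correction for transcript length.

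Type I and type III interferons bind surface receptors that activate the kinases JAK1 and TYK2. These phosphorylate STAT proteins, STAT2 among them, which join IRF9 in the complex ISGF3, and ISGF3 binds a DNA element called the interferon-stimulated response element (ISRE) in the promoters of its target genes. Interferon gamma uses its own receptor with JAK1 and JAK2 and acts through STAT proteins at another element, the gamma-activated site (GAS), and many targets answer to both kinds of interferon. In melanoma, as in other tumors, this response is known for its links to antigen presentation and to immune recognition.

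The ISRE sits close to the start of many members, and the promoter sequences are shown first because the response runs through them. The window searched held 250 bases before and 50 bases from the annotated start of the principal transcript on, on the mouse build GRCm39, and the ISRE core was searched as GAAANNGAAA on either strand (TTTCNNTTTC when read on the other strand), where N is any base and matches may overlap. Sequences are printed 5′ to 3′ on the strand of the gene, with matches to the core in capitals. The whole window of Isg15, which encodes a ubiquitin-like protein, comes first. It is followed by the stretches around the cores of 8 members whose values are described below. Those of Zbp1 and Oas2, which hold cores but were at or close to 0 in every library, come last.
Isg15 whole window (chr4:156285254-156285553, minus strand): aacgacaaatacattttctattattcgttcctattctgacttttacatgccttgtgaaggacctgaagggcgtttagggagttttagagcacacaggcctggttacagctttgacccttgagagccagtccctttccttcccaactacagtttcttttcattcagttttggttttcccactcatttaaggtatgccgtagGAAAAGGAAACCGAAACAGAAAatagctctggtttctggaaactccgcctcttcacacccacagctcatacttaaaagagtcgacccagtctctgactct
Usp18 (chr6:121222772-121222825, plus strand): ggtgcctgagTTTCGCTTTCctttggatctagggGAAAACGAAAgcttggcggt
Ifit1 (chr19:34618175-34618223, plus strand): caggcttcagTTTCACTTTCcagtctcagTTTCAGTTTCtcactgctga
Trim30a (chr7:104114417-104114446, minus strand): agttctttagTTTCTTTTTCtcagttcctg
Oas1a (chr5:121045583-121045618, minus strand): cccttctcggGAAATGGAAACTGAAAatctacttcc
Ifi27 (chr12:103400382-103400411, plus strand): gagagctgggGAAATAGAAAcctatcttat
Irgm1 (chr11:48762252-48762287, minus strand): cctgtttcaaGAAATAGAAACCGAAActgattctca
Rtp4 (chr16:23428585-23428663, plus strand): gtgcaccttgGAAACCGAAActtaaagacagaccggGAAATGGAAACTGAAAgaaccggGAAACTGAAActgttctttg
Rsad2 (chr12:26506552-26506581, minus strand): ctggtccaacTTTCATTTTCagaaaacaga
Zbp1 (chr2:173060742-173060825, minus strand): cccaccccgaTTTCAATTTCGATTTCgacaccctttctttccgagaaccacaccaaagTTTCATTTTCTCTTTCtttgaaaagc
Oas2 (chr5:120887970-120887999, minus strand): cacacttgagTTTCGATTTCctaggttcct

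With the start counted as position 0, the first of 3 overlapping cores of Isg15 began at -50, that of Usp18 at -75, of Ifit1 at -86 and of Trim30a at -29. In Oas1a the 2 overlapping cores began at position 2, inside the transcript. Of the 47 members, 21 (44.68%) held at least 1 ISRE core in the window, beside 3.83% of the windows of 21627 protein-coding genes and 3.4% of those of the genes tested for expression. The GAS core, searched as TTCNNNGAA, which reads the same on both strands, was in the windows of 9 members (19.15%), beside 8.85% of the protein-coding genes. The promoter windows of RefSeq on the older build GRCm38.p6 cover the same length, and there a gene counted if any of its windows held the core. In these, 37 members were matched and 20 of them (54.05%) held the ISRE core, beside 3.99% of all 27025 genes. These shares describe letters in a window and not binding. Herc6, Xaf1, Ifitm3, Samd9l, Lgals3bp and Parp14 had no match to the ISRE core in these windows.

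**Figure D1:**
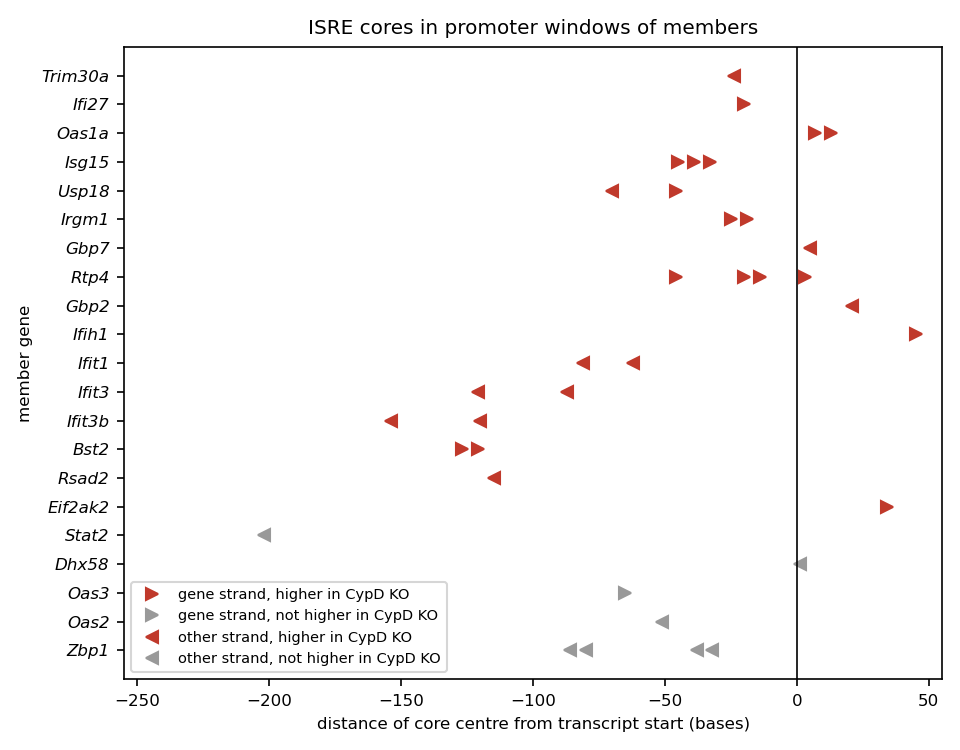
Positions of the ISRE cores in the 21 members that hold one. The x axis gives the distance of the core from the transcript start in bases, each row is a gene in order of its log2 fold change in CypD KO against WT, triangles point right for cores on the strand of the gene and left for the other strand, and red marks genes that were higher in CypD KO (16 genes) while grey marks the other 5. Cores of the genes with the largest fold changes, at the top, lie close to the start on either side of it, and the 5 grey genes include Zbp1 with 4 cores. Zbp1, Oas2 and Oas3 among the grey genes were not tested.

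Some facts of the whole series bear on the comparisons. Ppif read 50.68 and 49.99 TPM in the WT libraries and 10.44 and 12.11 TPM in the CypD KO libraries, and it read 44.59 and 42.25 TPM in Control beside 50.29 and 49.28 TPM in CypD OE, as labelled. The target was thus lower in CypD KO but only slightly higher in CypD OE, and directions taken from the latter rest on the label. Of the 55414 genes, 17942 to 19692 were above 0 in a library, the 2 libraries of a group correlated at 0.9831 to 0.9848 on the log2 scale, and the steps between low values put the depth at about 25500000 to 29900000 fragments per library. Melanocyte markers were abundant throughout, with a summed level of 12828 to 21478 TPM over 10 genes. Of 18 leukocyte markers, 9 were listed at 0 in every library, Ptprc (the pan-leukocyte marker CD45) never exceeded 0.02 TPM, and the summed level was 3.74 to 5.07 TPM in WT, 24.48 to 25.55 TPM in CypD KO, 5.11 to 5.21 TPM in Control and 1.28 to 2.37 TPM in CypD OE. The rise in CypD KO came mostly from Cd68, a lysosomal protein gene, at 21.85 and 23.33 TPM. Summed levels of 6 fibroblast markers ran from 15.42 to 17.7 TPM in WT and from 34.0 to 36.88 TPM in CypD KO. They were 18.98 to 20.97 TPM in Control and 9.21 to 11.33 TPM in CypD OE, with 2 of the 6 at 0 everywhere. Postn, a secreted matrix protein gene, rose from 8.04 and 8.07 TPM in WT to 34.77 and 31.22 TPM in CypD KO. Col1a2, a collagen gene, went the other way, from 9.03 and 6.87 TPM in WT to 1.09 and 2.17 TPM in CypD KO. The 5 endothelial markers summed to between 0.41 and 4.21 TPM. The part of these cell types in the results was not tested.

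Most members were higher in CypD KO cells than in WT cells. At 21% oxygen, 31 of the 38 members tested were higher in CypD KO and 0 were lower, while 7 did not pass (limma on log2(TPM + 1), Benjamini-Hochberg adjusted p under 0.05 over all 13526 genes tested). Over all genes tested, 30.1% were higher and 18.4% lower. Members had a median log2 fold change of 1.29, and all genes one of 0.09. A rescaling of the libraries to equal median ratios moved the shares of all genes to 23.7% higher and 25.7% lower, a shift of the split by more than 10 percentage points, and left the members at 31 higher and 0 lower. The summed TPM of the 47 members was 415.87 and 408.77 in the WT libraries and 890.91 and 886.06 in the CypD KO libraries. In bulk RNA such as this, fewer cells of a type and less RNA per cell cannot be told apart.

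A gene was tested where it reached 1 TPM in at least 2 of the 8 libraries, and 9 members did not. These were Socs1, Zbp1, Oas2, Oas3, Oasl1, Oasl2, Ifi44 and Sp100, and Ifitm1, which was listed at 0 in every library. The filter can be passed through CypD KO libraries, and 8 of the 38 passed only with the help of at least 1 of them, namely Irf7, Ifit3b, Oas1a, Mx2, Gbp7, Igtp, Parp14 and Trim30a. Of the other 30, which reached 1 TPM in 2 of the 6 libraries outside CypD KO, 24 were higher in CypD KO and 0 were lower, beside 29.1% higher and 19.2% lower among the 12950 genes that met the same condition. Counted without a test, 35 of the 47 members had both CypD KO libraries above all other 6 libraries. The share of all genes with this pattern was not counted, so the number has no background beside it. The same holds for the counts that follow. At least 1 TPM in both libraries was reached by 26 members in WT, 37 in CypD KO, 27 in Control and 24 in CypD OE.

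**Figure D2:**
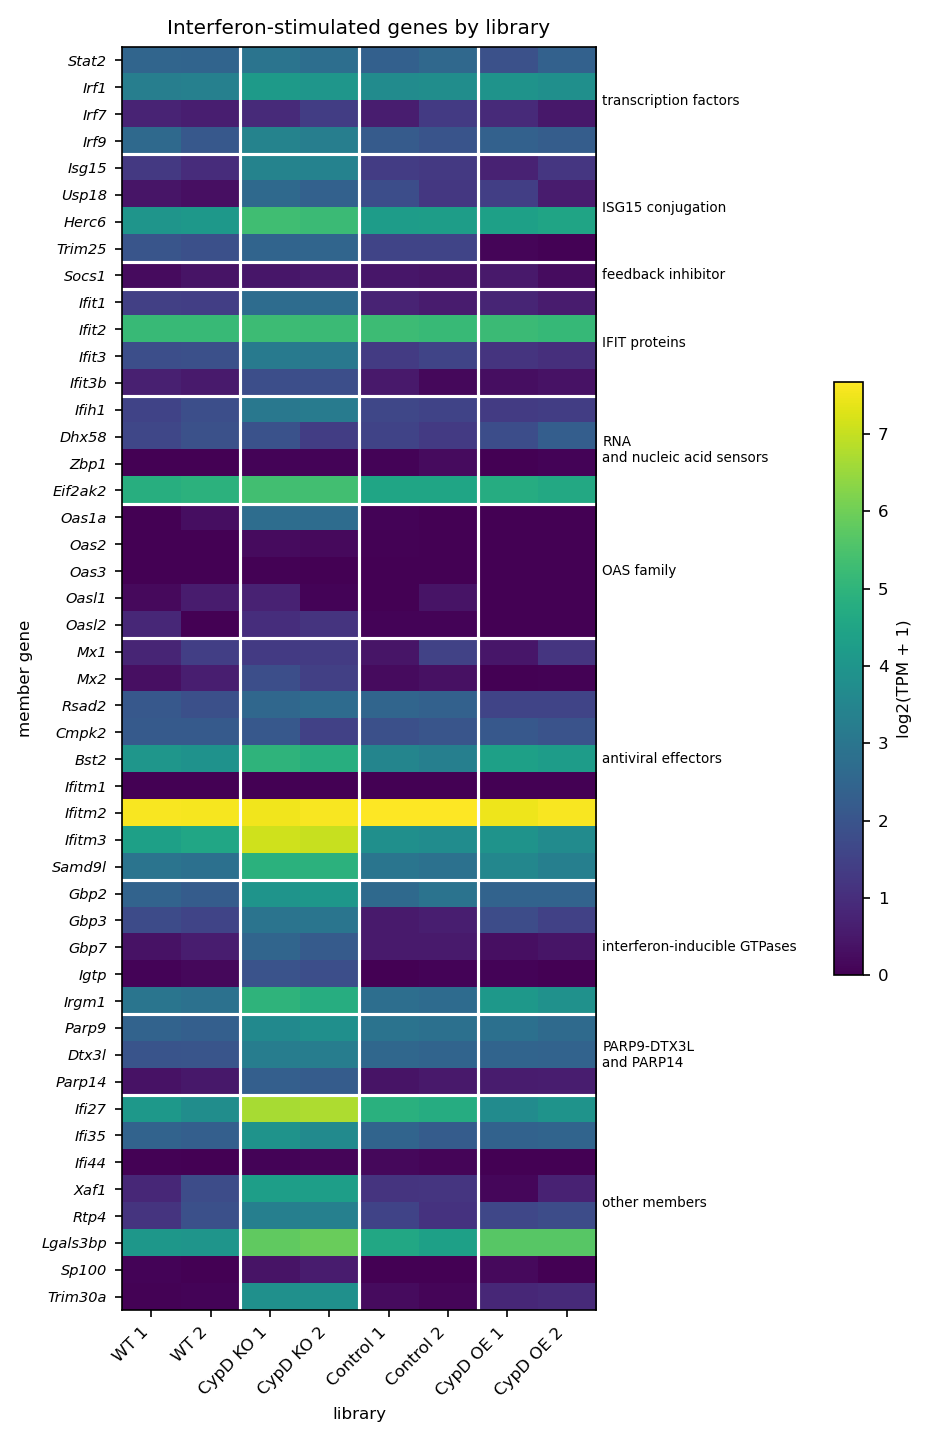
Levels of all 47 members in the 8 libraries, as log2(TPM + 1) from dark (0) to yellow, with members in rows grouped by role and libraries in columns grouped as WT, CypD KO, Control and CypD OE. The CypD KO columns are the brightest for most rows, while Ifit2 and Ifitm2 keep the same colour in all columns and most of the OAS family stays dark.

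The transcription factors of the response moved unevenly. Irf1, a factor induced by interferon gamma and other stimuli, was at 8.71 and 9.25 TPM in WT, 17.1 and 15.35 TPM in CypD KO, 11.91 and 12.46 TPM in Control and 14.24 and 13.05 TPM in CypD OE. Its CypD KO libraries lay above all others, and the log2 fold change against WT was 0.79 with a standard error of 0.09 (adjusted p = 0.00043). Irf9, the DNA-binding part of ISGF3, stood at 5.12 and 3.34 TPM in WT, 9.75 and 8.8 TPM in CypD KO, 3.59 and 2.96 TPM in Control and 4.22 and 3.82 TPM in CypD OE. It too was highest in both CypD KO libraries, with a log2 fold change of 0.99 and a standard error of 0.18 (adjusted p = 0.0040).

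Stat2, a part of ISGF3, gave 4.65 and 4.58 TPM in WT, 6.68 and 5.89 TPM in CypD KO, 4.16 and 5.06 TPM in Control and 2.78 and 4.23 TPM in CypD OE. The groups WT and CypD KO did not overlap, but the log2 fold change of 0.37 with a standard error of 0.18 did not pass the threshold (adjusted p = 0.125). Irf7, the factor that amplifies interferon alpha production, read 0.71 and 0.56 TPM in WT, 0.88 and 1.61 TPM in CypD KO, 0.53 and 1.47 TPM in Control and 0.9 and 0.42 TPM in CypD OE. Its CypD KO libraries lay above those of WT but not above all of Control and CypD OE, and its log2 fold change of 0.44 with a standard error of 0.30 did not pass (adjusted p = 0.268). Socs1, the feedback inhibitor that blocks JAK kinases, was too low to be tested, at 0.17 to 0.46 TPM over the 8 libraries.

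All 4 genes of the ISG15 system were higher in CypD KO, beside 30.1% of all genes. ISG15 is a ubiquitin-like protein that is attached to other proteins, and its own gene read 1.43 and 0.96 TPM in WT, 9.91 and 9.61 TPM in CypD KO, 1.55 and 1.44 TPM in Control and 0.66 and 1.3 TPM in CypD OE. The CypD KO libraries stood 8.17 times above WT on the ratio of mean TPM, with a log2 fold change of 2.30 and a standard error of 0.20 (adjusted p = 0.00013). Usp18, which removes ISG15 from proteins and also restrains the interferon receptor, was at 0.36 and 0.25 TPM in WT, 5.21 and 4.2 TPM in CypD KO, 2.54 and 1.39 TPM in Control and 1.68 and 0.51 TPM in CypD OE. The order of its groups was WT below the pcDNA lines and these below CypD KO, with Control and CypD OE overlapping, and its log2 fold change in CypD KO was 2.12 with a standard error of 0.31 (adjusted p = 0.0015).

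Herc6, the ligase that attaches ISG15 in the mouse, was expressed well above these, at 15.18 and 16.15 TPM in WT, 39.05 and 36.53 TPM in CypD KO, 18.07 and 18.48 TPM in Control and 19.69 and 21.47 TPM in CypD OE. Its CypD KO libraries were set apart from the other 6, and the log2 fold change was 1.22 with a standard error of 0.07 (adjusted p = 2.7e-05). Trim25, a ubiquitin ligase that activates the RNA sensor RIG-I and can also carry ISG15, read 3.08 and 2.67 TPM in WT, 4.51 and 4.66 TPM in CypD KO, 1.97 and 1.95 TPM in Control, and 0.08 and 0.03 TPM in CypD OE. It was near 0 in the CypD OE libraries alone. Its log2 fold change in CypD KO was 0.53 with a standard error of 0.14 (adjusted p = 0.016), and that call was lost when either CypD KO library or the second WT library was left out (adjusted p = 0.0555, 0.0678 and 0.0811) and with a pseudocount of 0.1 (adjusted p = 0.0862).

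The largest rises in CypD KO were in genes of several classes. Trim30a, a TRIM protein gene of the mouse, was all but silent in WT at 0.03 and 0.05 TPM and stood at 13.53 and 13.36 TPM in CypD KO, against 0.16 and 0.08 TPM in Control and 0.82 and 0.87 TPM in CypD OE. The log2 fold change of 3.80 with a standard error of 0.14 (adjusted p = 4.3e-06) was the largest of the members. Trim30a passed the filter on low TPM only through the CypD KO libraries, so this p-value is not independent of the rise. Xaf1, a gene for a pro-apoptotic partner of XIAP, gave 0.81 and 2.48 TPM in WT, 18.95 and 18.85 TPM in CypD KO, 1.21 and 1.27 TPM in Control and 0.1 and 0.67 TPM in CypD OE. The WT libraries differed between themselves and yet both lay far under CypD KO, with a log2 fold change of 2.99 and a standard error of 0.33 (adjusted p = 0.00040).

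Ifi27, a mitochondrial and nuclear membrane protein gene, was among the most abundant members in CypD KO, at 100.72 and 106.05 TPM against 16.05 and 12.58 TPM in WT, 28.04 and 26.21 TPM in Control and 12.03 and 14.44 TPM in CypD OE. Control lay between WT and CypD KO, and CypD OE overlapped WT. The log2 fold change in CypD KO was 2.78 with a standard error of 0.13 (adjusted p = 9.5e-06). Ifitm3, which blocks the entry of enveloped viruses, read 19.44 and 22.4 TPM in WT, 137.84 and 128.74 TPM in CypD KO, 13.21 and 12.3 TPM in Control and 14.26 and 11.99 TPM in CypD OE. Its libraries in CypD KO were 6.37 times those in WT on the ratio of mean TPM, with a log2 fold change of 2.62 and a standard error of 0.10 (adjusted p = 5.4e-06).

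Oas1a, a synthase of the 2-5A signal that activates RNase L, was listed at 0 in 1 WT library and at 0.21 TPM in the other, stood at 5.65 and 5.53 TPM in CypD KO, and did not exceed 0.06 TPM in the other 4 libraries. It was thus present in quantity in CypD KO alone, with a log2 fold change of 2.58 and a standard error of 0.18 (adjusted p = 5.2e-05). Like Trim30a, it passed the filter only through CypD KO, so the p-value has the same limit. The rest of the OAS family stayed too low to be tested. Oas2 reached 0.16 and 0.15 TPM in CypD KO and Oas3 0.04 TPM in 1 CypD KO library. Oasl1 ran from 0 to 0.68 TPM, and Oasl2 read 0.8 and 0 TPM in WT, 0.99 and 1.23 TPM in CypD KO and at most 0.06 TPM elsewhere.

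Some neighbouring members differed in their change. The 4 IFIT genes, which encode proteins that bind foreign RNA, start within 90226 bases of each other on chromosome 19. Ifit1 read 1.75 and 1.66 TPM in WT, 5.53 and 5.58 TPM in CypD KO, 0.71 and 0.51 TPM in Control and 0.75 and 0.5 TPM in CypD OE. It was highest in CypD KO and lower in both pcDNA groups than in WT, and the log2 fold change in CypD KO was 1.28 with a standard error of 0.15 (adjusted p = 0.00061). Ifit3 and Ifit3b, near-identical copies between which reads can be divided, rose by 1.24 and 1.22. Ifit2, by contrast, kept to 34.2 to 37.54 TPM over the 8 libraries, with a log2 fold change in CypD KO of 0.08 and a standard error of 0.06 (adjusted p = 0.289).

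A similar contrast held among the IFITM genes on chromosome 7. Ifitm2 and Ifitm3 start 55054 bases apart. Ifitm2 was the most abundant member in every library and stayed at 177.55 to 203.66 TPM, with a log2 fold change in CypD KO of -0.03 and a standard error of 0.05 (adjusted p = 0.648), while Ifitm3 rose as given above and Ifitm1 was listed at 0. Rsad2 and Cmpk2 start 12752 bases apart on opposite strands of chromosome 12. Rsad2, the antiviral enzyme viperin, rose to 4.97 and 5.47 TPM in CypD KO from 3.31 and 2.63 TPM in WT, with a log2 fold change of 0.65 and a standard error of 0.13 (adjusted p = 0.0065). Cmpk2, a mitochondrial nucleotide kinase, had 3.56 and 3.49 TPM in WT and 3.34 and 1.77 TPM in CypD KO, and did not pass the threshold (adjusted p = 0.188).

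**Figure D3:**
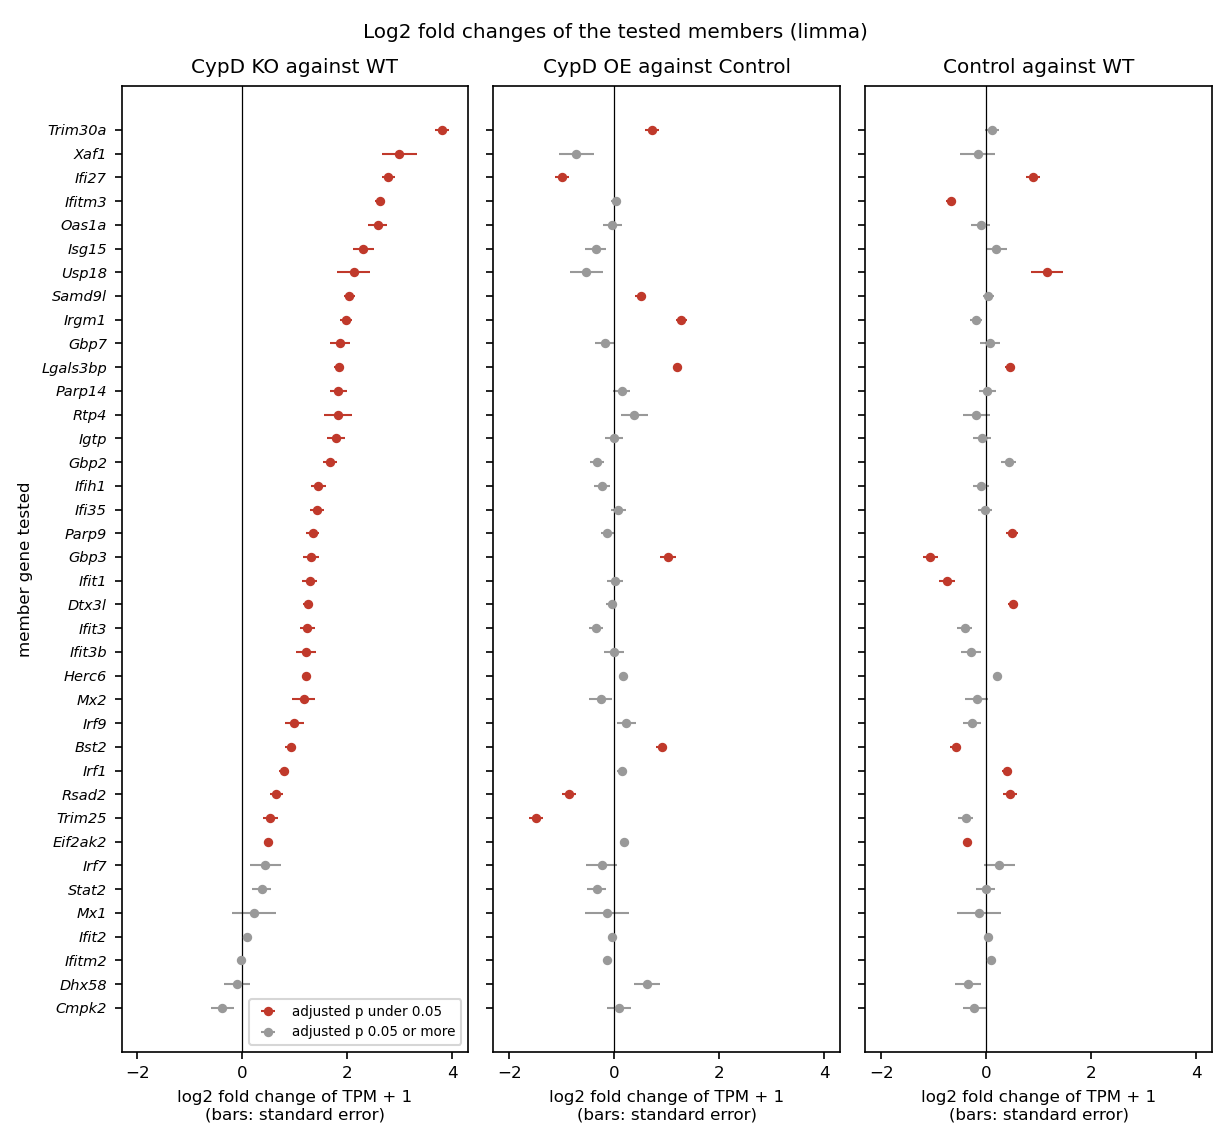
Log2 fold changes of the 38 tested members, on the log2(TPM + 1) scale, in CypD KO against WT, CypD OE against Control and Control against WT, with standard errors as bars and red for an adjusted p under 0.05. In the first panel 31 points are red and all of these lie above 0; in the others red points lie on both sides of 0. The panels share libraries, since WT enters the first and the last, and Control the last and the middle one.

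The other groups of members rose in CypD KO to differing extents. All 5 interferon-inducible GTPases, which act against intracellular pathogens, were higher, beside 30.1% of all genes. They are the guanylate-binding proteins Gbp2, Gbp3 and Gbp7 and the immunity-related GTPases Igtp and Irgm1. Their log2 fold changes lay between 1.31 (Gbp3) and 1.97 (Irgm1). Gbp7 and Igtp passed the filter on low TPM only through CypD KO, so their calls are not independent of it. Gbp2, Gbp3 and Gbp7 lie within 90305 bases of each other on chromosome 3. Gene models of Igtp and Irgm2 share 7974 bases on the same strand, so the value of Igtp is uncertain. Parp9, Dtx3l and Parp14, which encode PARP-family proteins and the ubiquitin ligase partner of PARP9, were all higher, by 1.34, 1.25 and 1.83. Parp14 likewise passed the filter only through CypD KO. Parp9 and Dtx3l start 681 bases apart on opposite strands.

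Among sensors, Ifih1, which encodes the RNA sensor MDA5, rose by 1.45 with a standard error of 0.15 (adjusted p = 0.00027), from 1.92 and 2.56 TPM in WT to 7.45 and 8.19 TPM in CypD KO. Eif2ak2, the kinase PKR that halts translation on double-stranded RNA, rose by 0.48. Dhx58, for the related sensor LGP2, had a log2 fold change of -0.10 and a standard error of 0.25 (adjusted p = 0.779), and Zbp1, a sensor of Z-form nucleic acid, did not exceed 0.16 TPM. Of the remaining antiviral effectors, Bst2 (tetherin), Mx2 and Samd9l, a translational restriction factor, were higher, by 0.92, 1.17 and 2.04. Mx1 did not pass the threshold, at 0.72 and 1.67 TPM in WT and 1.49 and 1.51 TPM in CypD KO (adjusted p = 0.693). Rtp4, a receptor transporter gene with 4 ISRE cores, read 1.24 and 2.67 TPM in WT, 9.02 and 9.23 TPM in CypD KO and 1.16 to 2.48 TPM in the other 4 libraries. Ifi35, Rtp4 and Lgals3bp were higher by 1.42, 1.82 and 1.84, while Ifi44 stayed at or under 0.11 TPM and Sp100, a nuclear body protein gene, at or under 0.51 TPM.

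The rise was not uniform in size. The 31 log2 fold changes ran from 0.48 (Eif2ak2) to 3.80 (Trim30a), and 25 of them were above 1. Of the 31 genes, 16 (51.61%) held an ISRE core in the promoter window. Of the other 16 members, 9 of which were not tested, 5 (31.25%) did. These were Stat2 and Dhx58, which did not pass, and Zbp1, Oas2 and Oas3, which were not tested. The GAS core was in 6 (19.35%) and 3 (18.75%) of these windows.

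Several of the counted genes overlap others. Ifit1 shares its interval with Ifit1bl2, Oas1a with Oas1d, Ifi27 with Ifi27l2a, Ifi35 with Vat1 and Eif2ak2 with Gpatch11, all on the opposite strand. On the same strand, Irf9 shares 282 bases with Rnf31 and Ifitm2 1113 bases with the protein-coding gene Gm45717. Herc6 and Rtp4 share 45084 and 39872 bases with the long non-coding RNAs Gm45193 and Gm45338, also on the same strand. Isg15, Usp18 and Irf1 each lie across an antisense long non-coding RNA. Whether the counting used strand is not given in the sources used here, so reads of such pairs cannot be told apart.

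In CypD OE cells at 1% oxygen the members went both ways. Of the 38 tested, 6 were higher than in Control and 3 lower, and 29 did not pass the threshold, beside 19.0% and 18.3% of all genes. Both shares of the members are near to or under the background. Members had a median log2 fold change of -0.02, and all genes one of 0.00. The genes that were higher were Bst2, Samd9l, Gbp3, Irgm1, Lgals3bp and Trim30a, and those that were lower were Trim25, Rsad2 and Ifi27.

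Lgals3bp, a secreted glycoprotein that binds galectins, read 23.42 and 19.42 TPM in Control and 50.08 and 50.65 TPM in CypD OE, against 15.63 and 15.01 TPM in WT and 55.05 and 59.96 TPM in CypD KO. The levels in CypD OE came close to those in CypD KO, and the log2 fold change against Control was 1.20 with a standard error of 0.09 (adjusted p = 0.00014). Irgm1, a GTPase that regulates its own family at membranes, was at 5.84 and 5.38 TPM in Control and 16.24 and 13.84 TPM in CypD OE, against 6.84 and 6.28 TPM in WT and 30.63 and 26.74 TPM in CypD KO. CypD OE lay between the pair of low groups and CypD KO, with a log2 fold change of 1.28 and a standard error of 0.11 (adjusted p = 0.00025).

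Gbp3, a guanylate-binding protein gene, gave 0.48 and 0.56 TPM in Control and 2.43 and 1.8 TPM in CypD OE, against 2.34 and 1.99 TPM in WT and 6.75 and 6.92 TPM in CypD KO. Here Control was the low group, and CypD OE overlapped WT. The log2 fold change in CypD OE against Control was 1.03 with a standard error of 0.15 (adjusted p = 0.0024). Bst2, which tethers budding virus to the cell surface, was also lowest in Control, with 10.34 and 8.86 TPM in Control, 15.53 and 14.19 TPM in WT, 19.39 and 18.12 TPM in CypD OE and 30.91 and 27.27 TPM in CypD KO, and its log2 fold change in CypD OE against Control was 0.90 with a standard error of 0.10 (adjusted p = 0.00075).

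The 3 falls were those of Trim25, with a log2 fold change of -1.49 and a standard error of 0.14 (adjusted p = 0.00029), Ifi27, with -0.99 and 0.13 (adjusted p = 0.0013), and Rsad2. Rsad2 had 4.64 and 4.22 TPM in Control but 2 and 1.99 TPM in CypD OE, so that its CypD OE libraries were the lowest of all 8, with a log2 fold change of -0.86 and a standard error of 0.13 (adjusted p = 0.0029). The same 3 genes were the members that were higher in CypD KO against WT and lower in CypD OE against Control, a pattern met by 7.61% of all genes. The 6 that rose in CypD OE were also higher in CypD KO, a pattern met by 6.57% of all genes. Isg15, Usp18, Xaf1 and Oas1a did not differ past the threshold between CypD OE and Control, with adjusted p of 0.21, 0.23, 0.13 and 0.88.

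**Figure D4:**
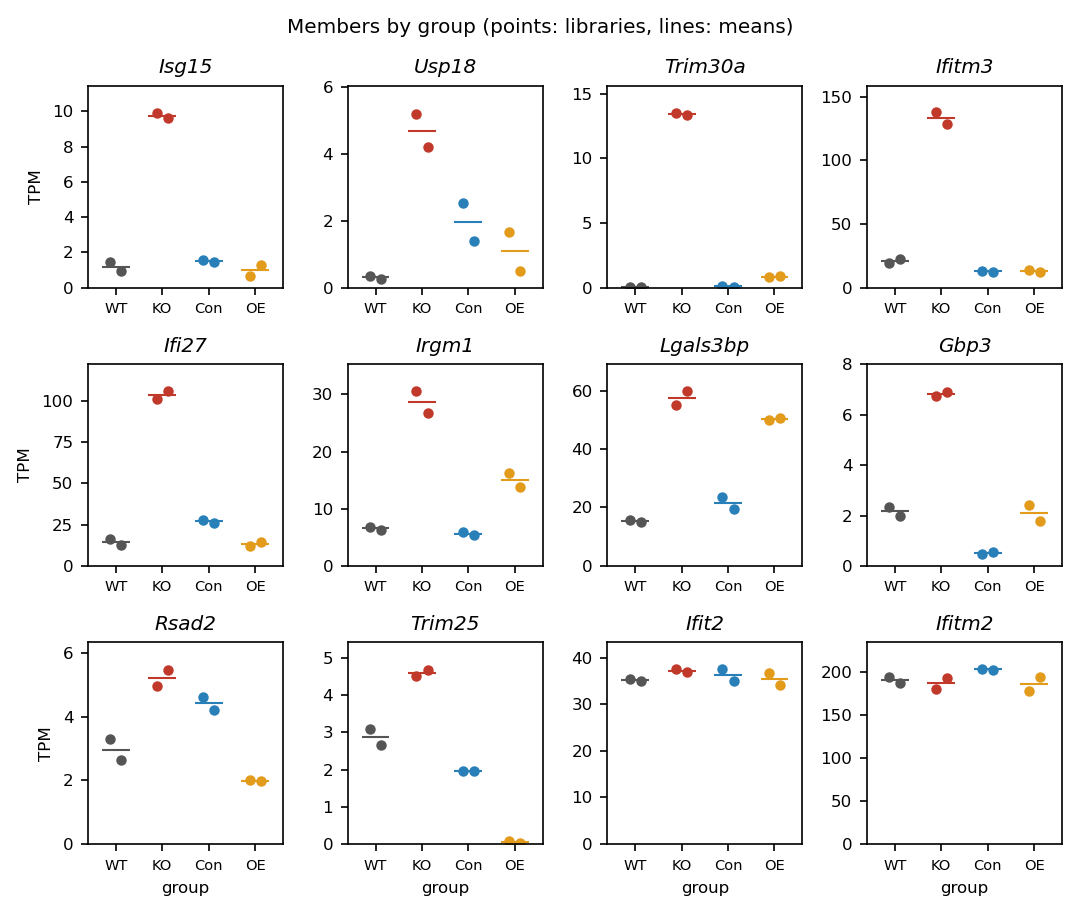
TPM of 12 members in each library (points) with the group mean (lines), for WT and CypD KO (KO) at 21% oxygen and Control (Con) and CypD OE (OE) at 1% oxygen; every y axis starts at 0. The CypD KO libraries are highest for the first 10 genes, Irgm1 and Lgals3bp also rise in CypD OE, Rsad2 and Trim25 are lowest there, and Ifit2 and Ifitm2 are level.

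The differences of the 2 lines were also set against each other. For each gene the change from WT to CypD KO at 21% oxygen was compared, in the same limma fit, with the change from CypD OE to Control at 1% oxygen, which also runs from the higher to the lower labelled CypD; this contrast was chosen after the data were seen. The former was greater for 28 of the 38 members and smaller for 1, Trim25, beside 25.9% and 17.1% of all genes. Of the 30 members that reached 1 TPM in 2 of the 6 libraries outside CypD KO, it was greater for 22 and smaller for 1, beside 25.4% and 17.9% of the genes that met the same condition. Of the 31 members that rose in CypD KO, Rsad2 and Mx2 were the ones for which the 2 changes were not told apart. The lines differ in vector, selection, clone and oxygen as well as in CypD, and these cannot be told apart.

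Control and WT cells differ in oxygen, in the vector and in selection together, and the effects of these cannot be told apart. Of the 38 members, 7 were higher in Control and 5 lower, beside 12.1% and 12.1% of all genes, with a median log2 fold change of -0.05 against 0.01 for all genes. The count fell to 6 when the 4 libraries compared were fitted alone, with 1 higher and 5 lower, and to 6 without either WT library, with 2 higher and 4 lower each time. Without the second Control library it was 7, with 3 higher and 4 lower. Higher were Irf1, Usp18, Rsad2, Parp9, Dtx3l, Ifi27 and Lgals3bp, and lower were Ifit1, Eif2ak2, Bst2, Ifitm3 and Gbp3. Usp18 had the largest rise, 1.16 with a standard error of 0.31 (adjusted p = 0.038), but was lost when any 1 library of WT, CypD KO or Control was left out (adjusted p = 0.0515 to 0.168), and with all libraries when no filter was applied, when the 4 libraries compared were fitted alone or when the trend was left out (adjusted p = 0.099, 0.0538 and 0.0542). The call of Irf1 was lost without any 1 library of WT or Control (adjusted p = 0.0515 to 0.0854), and that of Lgals3bp without the second WT library (adjusted p = 0.069). Both were also lost in the fit of 4 libraries (adjusted p = 0.0576 and 0.0739).

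Ifi27 was higher in Control than in WT by 0.89 with a standard error of 0.13 (adjusted p = 0.0035). Gbp3 fell by 1.06 with a standard error of 0.15 (adjusted p = 0.0038), Ifitm3 by 0.67 with 0.10 (adjusted p = 0.0049) and Bst2 by 0.58 with 0.10 (adjusted p = 0.0081). Ifit1 fell by 0.75 with a standard error of 0.15 (adjusted p = 0.014), a call that was lost without either WT library or the second Control library (adjusted p = 0.0551 to 0.0697). Set against WT, CypD OE cells had 7 members higher and 4 lower, beside 14.0% and 13.7% of all genes. This comparison joins the difference of lines and of oxygen, and it shares WT with 2 of the comparisons above and CypD OE with the other. Those higher were Irf1, Herc6, Samd9l, Irgm1, Dtx3l, Lgals3bp and Trim30a, and those lower were Trim25, Ifit1, Ifit3 and Ifitm3.

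The genes that make and carry the interferon signal were examined beside the members, as a list of 61 pathway genes of which 36 could be tested. Interferon genes themselves were at trace levels. Of 21 ligands, 16 were listed at 0 in every library. Ifnb1, the interferon beta gene, read 0.16 and 0 TPM in WT and 0.31 and 0.17 TPM in CypD KO and was listed at 0 in the other 4 libraries. Ifna12 (0.15 TPM) and Ifna13 (0.14 TPM) appeared in 1 CypD KO library each, Ifnz in 1 WT library (0.08 TPM) and 1 CypD KO library (0.07 TPM), and Ifnk in 1 Control library (0.32 TPM) and 1 CypD OE library (0.27 TPM). At this depth 1 fragment on a transcript of 1000 effective bases is worth 0.082 to 0.0985 TPM, and more on a shorter one. These values thus stand for 1 or a few fragments each, and a difference between groups was not detectable.

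The receptors were expressed in all groups, with Ifnlr1, of the type III receptor, at most 0.28 TPM. Ifnar1, a chain of the type I receptor, read 49.77 and 46.43 TPM in WT, 33.7 and 39.16 TPM in CypD KO, 54.29 and 56.45 TPM in Control and 45.67 and 40.08 TPM in CypD OE. It was the receptor that fell in CypD KO, by 0.39 with a standard error of 0.09 (adjusted p = 0.011), and it was also lower in CypD OE than in Control, with a log2 fold change of -0.36 (adjusted p = 0.020). Ifnar2, the other chain, had 28.47 and 31.73 TPM in WT, 37.31 and 37.45 TPM in CypD KO, 31.57 and 36.57 TPM in Control and 31.35 and 26.06 TPM in CypD OE, and did not pass the threshold in CypD KO (adjusted p = 0.055).

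Of the interferon gamma receptor chains, Ifngr1 read 13.24 and 11.82 TPM in WT and 17.12 and 15.18 TPM in CypD KO, a rise of 0.34 with a standard error of 0.09 (adjusted p = 0.018). Its Control and CypD OE libraries ran from 14.24 to 15.46 TPM. Ifngr2 ran from 16.71 to 26.66 TPM and passed in none of CypD KO against WT, CypD OE against Control and Control against WT (adjusted p of 0.66, 0.069 and 0.30). Il10rb, shared by the type III interferon and interleukin-10 receptors, was at 88.09 and 89.56 TPM in Control and 42.08 and 48.6 TPM in CypD OE, with a log2 fold change of -0.96 and a standard error of 0.08 (adjusted p = 0.00017). In WT and CypD KO it ran from 52.37 to 63.05 TPM.

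All 4 kinases and STATs of the list were higher in CypD KO, beside 30.1% of all genes. Their log2 fold changes ran from 0.22 to 0.64. The median of all genes was 0.089, and -0.007 after the rescaling to equal median ratios, so the smaller rises are close to a shift of the whole library. Jak1, the kinase used by all interferon receptors, stood at 66.28 and 79.28 TPM in WT, 115.64 and 111.28 TPM in CypD KO and 70.97 to 76.6 TPM in the other 4 libraries, and was set apart only in CypD KO (log2 fold change 0.64, standard error 0.08, adjusted p = 0.00089).

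Tyk2, the kinase of the type I receptor, rose by 0.50 in CypD KO with a standard error of 0.12 (adjusted p = 0.014), from 6.83 and 6.73 TPM in WT to 11.05 and 9.02 TPM, with 6.82 to 8.08 TPM in the other 4 libraries. Jak2, the kinase of the interferon gamma receptor, had 17.88 and 17.39 TPM in WT, 22.08 and 20.34 TPM in CypD KO, 17.83 and 16.13 TPM in Control and 21.57 and 23.68 TPM in CypD OE. It was higher in CypD KO than in WT by 0.25 (adjusted p = 0.040) and in CypD OE than in Control by 0.39 (adjusted p = 0.0095). Stat3, which answers mainly to interleukin-6 family cytokines, rose by 0.22 in CypD KO (adjusted p = 0.045) and was lower in CypD OE than in Control, with a log2 fold change of -0.64 (adjusted p = 0.00081), at 38.88 and 35.12 TPM in WT, 44.42 and 41.97 TPM in CypD KO, 52.6 and 50.09 TPM in Control and 31.06 and 34.23 TPM in CypD OE.

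Of 15 tested genes listed under sensing and induction, which include Tlr4 and Adar, 8 were higher and 1 was lower in CypD KO. The largest rise, 3.26 with a standard error of 0.13 (adjusted p = 5.3e-06), was that of Ddx58, which encodes the RNA sensor RIG-I and was named after its values were seen. It read 1.96 and 2.16 TPM in WT, 27.92 and 28.67 TPM in CypD KO and 1.79 to 3.19 TPM in the other 4 libraries. The gene that was lower, likewise named afterwards, was Ikbke, a kinase that activates IRF3, at -0.55 (adjusted p = 0.029). Over all 36 tested pathway genes, 15 were higher and 3 lower in CypD KO, with a median log2 fold change of 0.23, beside 30.1% and 18.4% of all genes. In CypD OE against Control 3 were higher and 8 lower, beside 19.0% and 18.3% of all genes, and in Control against WT 3 were higher and 2 lower, beside 12.1% each way.

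**Figure D5:**
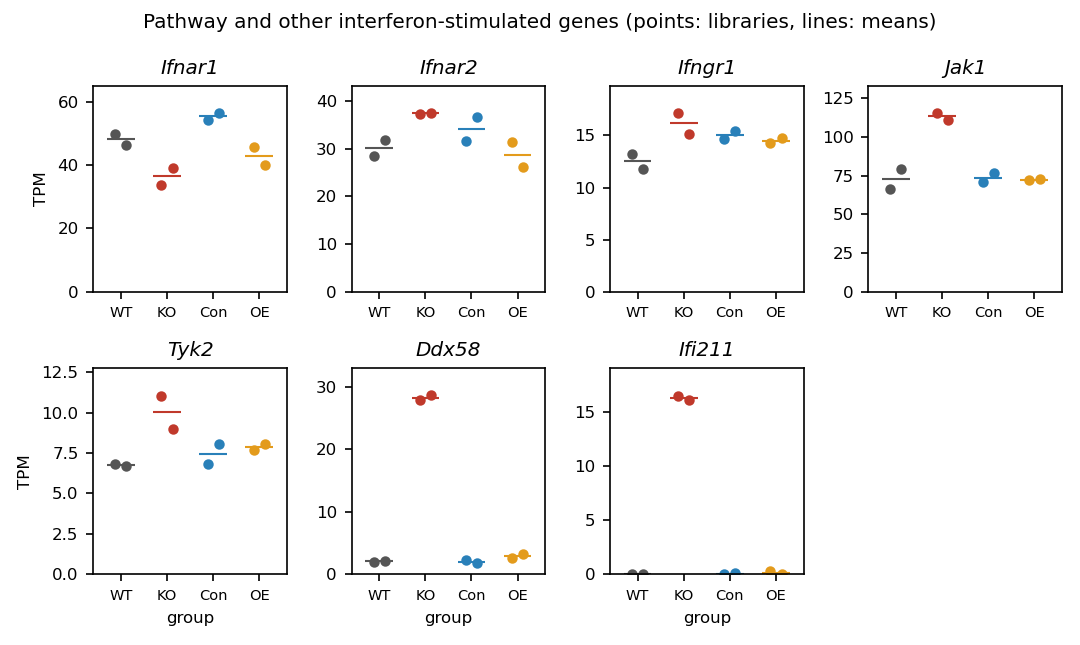
TPM of 6 pathway genes and of Ifi211, an interferon-stimulated gene outside the 47, in each library (points) with the group mean (lines), for WT and CypD KO (KO) at 21% oxygen and Control (Con) and CypD OE (OE) at 1% oxygen; every y axis starts at 0. Ifnar1 is lowest in CypD KO, and Jak1, Tyk2, Ddx58 and Ifi211 are highest there.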

How the data were processed

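Total RNA depleted of ribosomal RNA was sequenced in pairs of reads in 8 libraries of B16F10 lines, 2 for each of WT, CypD KO, Control and CypD OE. The authors used Cutadapt 3.4 for trimming, STAR 2.7.8a for alignment to GRCm39 and RSEM 1.3.1 for quantification, and the deposited values are TPM per gene. TPM is relative to all other transcripts of a library, and reads that fit several genes are shared among them by RSEM. The authors ran DESeq2 1.26.0 on counts for their own tests. Counts were not used here.

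Every column of the table was assigned to a sample by its label. The 47 members were matched by symbol, and all were found. TPM was taken to log2(TPM + 1), genes that reached 1 TPM in 2 or more of 8 libraries were kept (13526), and all 4 groups were fitted together with limma 3.58.1 in R 4.3.3 (moderated tests with a mean-variance trend, two-sided, Benjamini-Hochberg adjusted over all genes tested, threshold 0.05). Fold changes on this scale understate changes of genes with low TPM. An exact permutation test of 2 against 2 libraries cannot go below p = 0.333 and was not used. The code was tested on simulated data. Members and lists were chosen with earlier results of these data known. Each member was named. Values in every library were given for the transcription factors, the ISG15 system and Socs1, for the 6 members with the largest log2 fold change past the threshold and no overlap of libraries in CypD KO against WT, CypD OE against Control and Control against WT, and, chosen after their values were seen, in whole or in part for Rsad2, Rtp4, Ifih1, Mx1, Cmpk2 and the low OAS genes. Of the other lists, receptors, kinases, STATs and ligands above 0 were named, and the 3 largest rises and falls of other interferon-stimulated genes.

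Promoter windows came from the GENCODE annotation and genome sequence of GRCm39, and from RefSeq windows of GRCm38.p6 as a second source. Depth was estimated from the steps between low TPM values. The alternatives were a pseudocount of 0.1, no filter, a filter of 5 TPM, a median-of-ratios rescaling, a fit of the 4 libraries compared, a fit without the trend, a replicate block and the omission of each library. A gene of the pathway list and of the list of other interferon-stimulated genes is not reported here and was left out of their counts.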

Additional observations from a re-analysis of the deposited data

Results flagged for a closer look

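The difference between CypD KO and WT at 21% oxygen was set against that between Control and CypD OE at 1% oxygen by a test. The median log2 fold change of members was 1.29 in CypD KO against WT and -0.02 in CypD OE against Control. In the contrast of both it was 1.32, so it mostly repeats the first of these. The lines differ in vector, selection, clone and oxygen as well as in CypD, and these cannot be told apart. The change from WT to CypD KO was greater than the change from CypD OE to Control for 28 members and smaller for 1, Trim25, beside 25.9% and 17.1% of all genes (limma, Benjamini-Hochberg adjusted p under 0.05). Of the 30 members that reached 1 TPM in 2 of the 6 libraries outside CypD KO, the counts were 22 and 1. The test was chosen after the data were seen. Among the 28, the difference was largest for Trim30a, at 4.52 on the log2 scale, Irgm1, at 3.25, and Lgals3bp, at 3.04. All of these rose in CypD OE as well as in CypD KO, and Trim30a passed the filter only through CypD KO. For Trim25, which was near 0 in CypD OE, it was -0.96.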

How the results depend on the processing

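The count of members higher in CypD KO was 23 of the members left by a filter of 5 TPM and 33 with no filter. Their median log2 fold change was 1.63 with a pseudocount of 0.1, 1.22 with no filter, 1.38 with the filter of 5 TPM and 1.20 after rescaling, and 1.27 to 1.3 with 1 library left out. Members called in Control against WT fell from 12 to 6 in a fit of the 4 libraries compared, and ran from 6 to 11 with 1 library left out, with medians of -0.05 to 0.04. The median of CypD OE against WT was -0.01 with the filter of 5 TPM, -0.06 after rescaling, and -0.04 to 0.01 with 1 library left out. Members higher in CypD KO and lower in CypD OE fell to 1 with the filter of 5 TPM, which removes Trim25 and Rsad2, and ran from 2 to 4 with 1 library left out. Of 461 recomputed values of the 31 calls made on the members given in full, 438 stayed past the threshold, 23 did not and 0 changed direction. The lost calls were of Irf1, Usp18, Lgals3bp and Ifit1 in Control against WT and of Trim25 in CypD KO against WT. Where 1 library is left out, its partner is assumed to vary like the other groups.

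Replicates carry numbers in the library names, but same-numbered libraries deviated together with a correlation of only 0.108 for CypD KO and WT and of -0.002 for CypD OE and Control, so the numbers were not taken to pair them. With the number as a replicate block, 31 members were called in CypD KO against WT, 9 in CypD OE against Control, 11 in Control against WT and 12 in CypD OE against WT. TPM holds no counts. Values under about 0.1 TPM rest on about 1 fragment or less for a transcript of 1000 effective bases, and can rest on more for a longer one.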

Other observations

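Other interferon-stimulated genes, outside the 47, were also counted, 5 of which (Ddx58, Adar, Isg20, Nmi and Nlrc5) are on the pathway list too. Of 75 genes, 39 could be tested, and 30 of these were higher and 2 lower in CypD KO than in WT, beside 30.1% and 18.4% of all genes, with a median log2 fold change of 1.18. The filter on low TPM was passed by some only through CypD KO, and of the 29 that reached 1 TPM in 2 of the 6 libraries outside it, 20 were higher and 2 lower. The largest rises were those of Ddx58, described above, and of Ifi211 and Ifi204, PYHIN genes that encode DNA-binding proteins. Ifi211, at 0 in the WT libraries, read 16.54 and 16.13 TPM in CypD KO. Ifi204, likewise at 0 there, reached 6.61 and 5.73 TPM. The other 4 libraries stayed at or under 0.26 TPM for Ifi211 and at or under 0.12 TPM for Ifi204. The 2 that fell were Cxcl10, a chemokine that draws T cells, from 15.19 and 16.12 TPM to 7.23 and 7.58 TPM, and Pnpt1, a mitochondrial RNA-degrading enzyme, from 80.99 and 77.86 TPM to 48.63 and 45.81 TPM (limma adjusted p = 0.0012 and 6.9e-05).

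In CypD OE against Control, 7 of the 39 were higher and 4 lower, shares near to or under the 19.0% and 18.3% of all genes. Parp12, Psmb10 (an immunoproteasome subunit) and Tdrd7 had the largest rises, with log2 fold changes of 0.92, 0.85 and 0.75. The chemokine gene Ccl5 fell from 0.88 and 1.91 TPM in Control to 0 in both CypD OE libraries, Znfx1, an RNA helicase, fell from 13.43 and 13.14 TPM to 8.93 and 9.12 TPM (limma adjusted p = 0.011), and Ube2l6, the conjugating enzyme of ISG15, fell from 4.79 and 4.31 TPM to 2.02 and 2.35 TPM (limma adjusted p = 0.0027). In Control against WT, 3 were higher and 4 lower, beside 12.1% of all genes each way. Uba7 (the activating enzyme of ISG15), Slfn9 and B2m (the light chain of MHC class I) rose by 1.03, 0.44 and 0.17, and Cxcl10, Lgals9 (galectin-9) and Pnpt1 fell by 0.81, 0.58 and 0.51.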
